A study of Saccharomyces cerevisiae with 2 samples.

Results

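The rDNA of budding yeast (Saccharomyces cerevisiae) and its surroundings on chromosome 12 were examined in nucleosome maps of wild-type cells and of cells without Fun30. The window was defined by position, with earlier results of these data known. It took in every nucleosome call with a centre from 400000 to 520000 on chromosome 12 of the deposited files. It held 371 of 48019 calls in the wild-type library and 375 of 48135 calls in the fun30D library, together 746 of 96154. Both libraries came from strain BY4741, a haploid laboratory strain with auxotrophic markers, and they differed by genotype, wild type against the fun30D mutant. Per the labels' protocols, cells of both genotypes grew in YPD, a rich medium, at 30 °C to an optical density of about 0.5 and were fixed with 1% paraformaldehyde for 30 minutes. Crude nuclei were then treated at 37 °C for 10 minutes with micrococcal nuclease, an enzyme that cuts linker DNA, and fragments of mononucleosome size were cut from a gel and sequenced. As a check of the labels, the longest row of wild-type calls without a counterpart in fun30D held 18 calls on chromosome 1, which carries FUN30, and fun30D had 0 calls among them. There was 1 library per genotype, so no value below has a replicate error, no test between genotypes was made, and differences between the libraries cannot be told apart from differences in culture, digestion or library preparation.

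The rDNA of yeast is a tandem array in which each unit carries a precursor gene of the large rRNAs (RDN37), transcribed by RNA polymerase I, and a gene of the small 5S rRNA (RDN5), transcribed by RNA polymerase III. Cells carry many more units than a genome assembly shows, only some of them are transcribed at a time, and the spacers between the genes hold a replication fork barrier and are subject to silencing that depends on Sir2. Fun30 is an ATP-dependent remodelling enzyme of the Snf2 family that is known to act in silent chromatin.

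The gene table of assembly R64 lists 42 features between RNH203 (YLR154C), which encodes a subunit of ribonuclease H2 and is the nearest protein-coding gene on the left, and MAS1 (YLR163C), which encodes a subunit of the mitochondrial processing peptidase and lies on the right. Among them are 2 copies each of RDN37 (6858 bp), RDN25, RDN18 and RDN58, 6 copies of RDN5 (119 or 121 bp) and 4 copies of ASP3 (1089 bp), the gene of the asparaginase of the cell wall. The copies of RDN37 and the leftmost copies of RDN5 repeat at a distance of 9137 bp, and ASP3 copies at 3652 bp from ASP3-1 to ASP3-2 and from ASP3-3 to ASP3-4. The spacer that runs from RDN37 to RDN5 is listed at 2 places, each 1243 bp long, while the spacer from an RDN5 gene to the next RDN37 is listed once, between RDN5-1 and RDN37-2, with 915 bp. The genome build of the files was not matched to R64, so no call was assigned to a gene or spacer and no sequence was read by position. Instead, 4 zones were cut by position in the files. The left unique flank ran from 400 to 451 kb, the rDNA repeats from 451 to 469 kb, a zone called here the 5S flank from there to 491 kb, and the right unique flank from 491 to 520 kb. The sources used here do not say how reads with several equally good matches were placed, and its part in the results was not tested.

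Almost all of the rDNA was without calls in both libraries, and 3 of the 5 calls it held were among the 4 strongest of the genome in each. The repeat zone held 5 calls in wild type and 5 in the fun30D library over 18 kb, or 0.278 calls per kb. The unique flanks held 4.54 calls per kb in wild type (363 calls) and 4.58 in fun30D (366 calls). The density in the repeats was therefore 16.3-fold lower than in the flanks in wild type (95% interval 6.94 to 50.6) and 16.5-fold lower in fun30D (6.99 to 51.0). All intervals given here reflect the number of calls counted and not the spread between cultures, for which calls are no replicates. They also treat calls as independent counts, though the 5 calls of the repeats stood close together. The calls covered 2.96% of the repeat zone in wild type and 3.07% in fun30D, against 50.5% and 50.2% of the unique flanks.

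The 5S flank was nearly empty as well, with 3 calls in wild type and 4 in fun30D over 22 kb, or 0.136 and 0.182 calls per kb. These calls were too few to rank its density against that of the repeat zone. When the rest of the 16 chromosomes was divided into neighbouring tiles of 18 kb, none of 650 tiles in wild type and none of 649 in fun30D held as few calls as the repeat zone. The median tile held 74 calls in wild type and 75 in fun30D, and the lowest held 10 and 8. In tiles of 22 kb, 1 of 531 in each library held as few calls as the 5S flank.

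**Figure D1:**
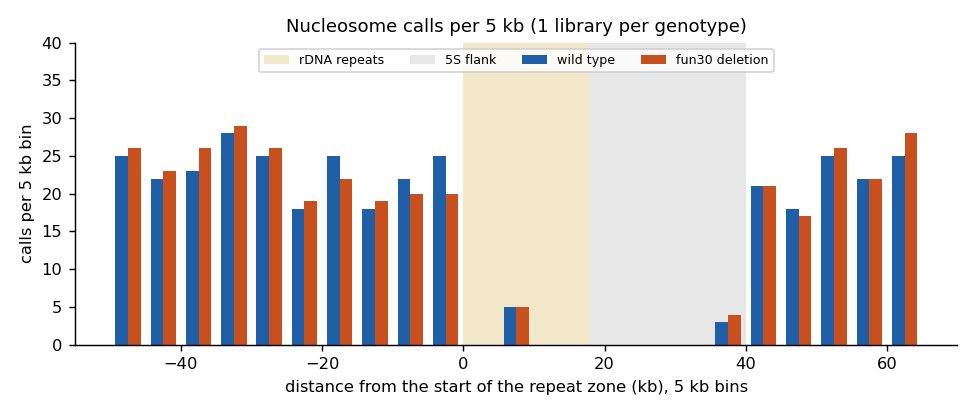
Number of nucleosome calls (vertical axis) in bins of 5 kb, placed by distance in kb from the start of the repeat zone (horizontal axis), with 1 bar per library. The bins of the repeats and the 5S flank hold 0 calls except for the group of 5 calls in the middle of the repeats and the 3 or 4 calls at the right end of the 5S flank.

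The emptiness fell into 2 stretches that both libraries shared. The right one ran from 460474 to 489571 in wild type, a distance of 29097 bp between neighbouring centres, and from 460517 to 489563 in fun30D, a distance of 29046 bp. It was the longest distance between neighbouring calls on chromosomes 1 to 16 in either library, and the next longest, on chromosome 1, measured 16529 and 16527 bp. The left one ran from 450936 to 459888 in wild type (8952 bp, rank 12 in that library) and from 450920 to 459887 in fun30D (8967 bp, rank 11). Distances of 1000 bp or more made up 1.24% of all distances in wild type (596 of 48003) and 1.23% in fun30D (593 of 48116). The last call before the repeats thus lay within 100 bp of the zone's edge in both libraries, and the outer edges of the empty region differed by 16 bp on the left and 8 bp on the right between the libraries.

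The 5 calls inside the repeats stood together in the middle of the zone, with centres over 586 bp in wild type and 630 bp in fun30D. The strongest lay at 459888 in wild type and at 459887 in fun30D, and with an occupancy of 29.4 it was the highest call of the genome in both. The occupancy is the authors' signal per call, on a scale the sources used here do not give. At 1000 quantiles over all calls its values differed between the libraries by at most 0.0196%, so equal values at equal rank follow from the scale. A ratio of occupancy between the libraries therefore compares places in 2 matched distributions and not amounts. The median over all calls was 0.210 in both libraries, which puts the strongest call at 140-fold the median in each. Occupancy per copy and the number of copies that feed 1 place of the assembly cannot be told apart in this signal.

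The next call lay at 460074 in wild type and at 460073 in fun30D, with occupancies of 10.4 (rank 3 of the library) and 9.21 (rank 4). Rank 3 in fun30D was held by a call on chromosome 4 at 148197, with 10.4. The middle call, at 460253 in wild type and 460254 in fun30D, had an occupancy of 14.1 and rank 2 in both. Calls at these 3 places therefore differed by 1 bp between the genotypes, and their widths did so too. They were 102, 108 and 139 bp wide in wild type and 103, 107 and 138 bp in fun30D. At 186 and 179 bp in wild type, and 186 and 181 bp in fun30D, the distances between them were of the size of a nucleosome repeat.

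The remaining calls, on the right side of the group, lay at other places in fun30D. In wild type the fourth call, at 460368, was 100 bp wide, with an occupancy of 2.30. In fun30D it was at 460392, 24 bp further right, with an occupancy of 1.81 and a width of 111 bp. In wild type the fifth call, at 460474, was 88 bp wide, with an occupancy of 1.30 and rank 1077. In fun30D it was at 460517, 43 bp further right, with an occupancy of 4.06, rank 37 and a width of 95 bp. On the matched scale the ratio was 3.11, or 1.64 as log2. The fifth call was weaker than the fourth in wild type and stronger than it in fun30D.

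The distances on this side were shorter than those on the left of the group in both libraries, and more so in wild type. From the third to the fourth call the centres were 115 bp apart in wild type and 138 bp in fun30D, and from the fourth to the fifth 106 and 125 bp. The wild-type calls 3 and 4 overlapped by 4.5 bp at their edges (an edge distance of -4.5 bp), while the same calls of fun30D lay 13.5 bp apart.

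**Figure D2:**
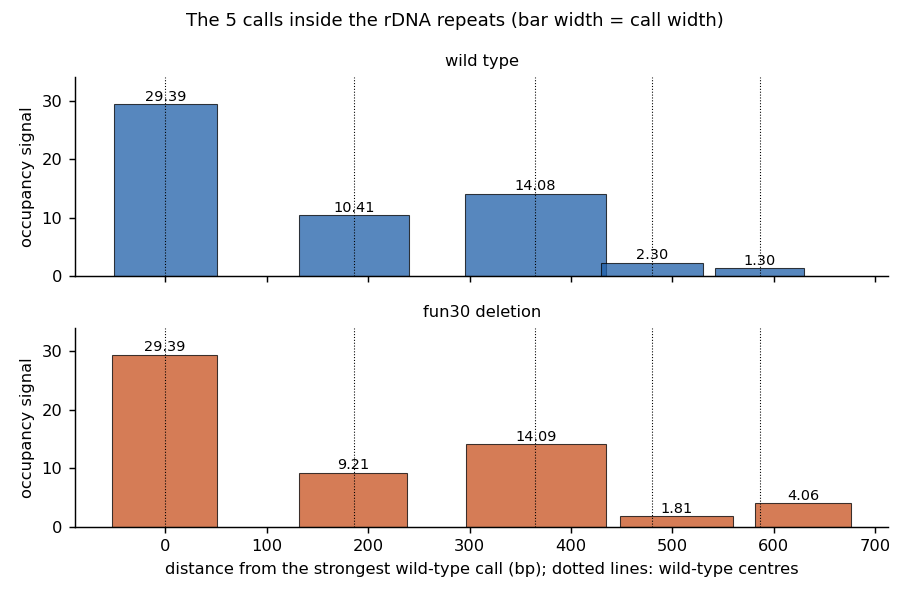
Occupancy signal (vertical axis, linear) of the 5 calls inside the repeats against the distance of their centres from the strongest wild-type call (horizontal axis, bp), with 1 panel per library and bars as wide as the calls. The 3 left calls coincide with the dotted wild-type centres, and the 2 right ones lie 24 and 43 bp further right in the fun30D library.

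The group carried a large share of the signal of its chromosome. Summed occupancy was 57.5 over 532 bp of covered DNA in wild type (mean 11.5 per call) and 58.5 over 552 bp in fun30D (mean 11.7 per call). This was 4.27% of the summed occupancy of chromosome 12 in wild type and 4.32% in fun30D, from 0.121% and 0.119% of its calls. The lowest of the 5 occupancies in either library, 1.30, lay above the flanks' median of 0.229 in wild type and 0.243 in fun30D. The ranges overlapped, since the strongest flank call reached 3.22 in wild type and 3.18 in fun30D. Call widths in wild type had medians of 102 bp in the repeats (range 88 to 139 bp) and 112 bp in the flanks. In fun30D the medians were 107 bp (range 95 to 138 bp) and 111 bp. Both ranges included the flanks' medians, so no difference in width was detectable. Of the 4 distances between neighbours in the repeats, 2 were from 140 to below 190 bp in each library, too few to compare with the flanks.

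**Figure D3:**
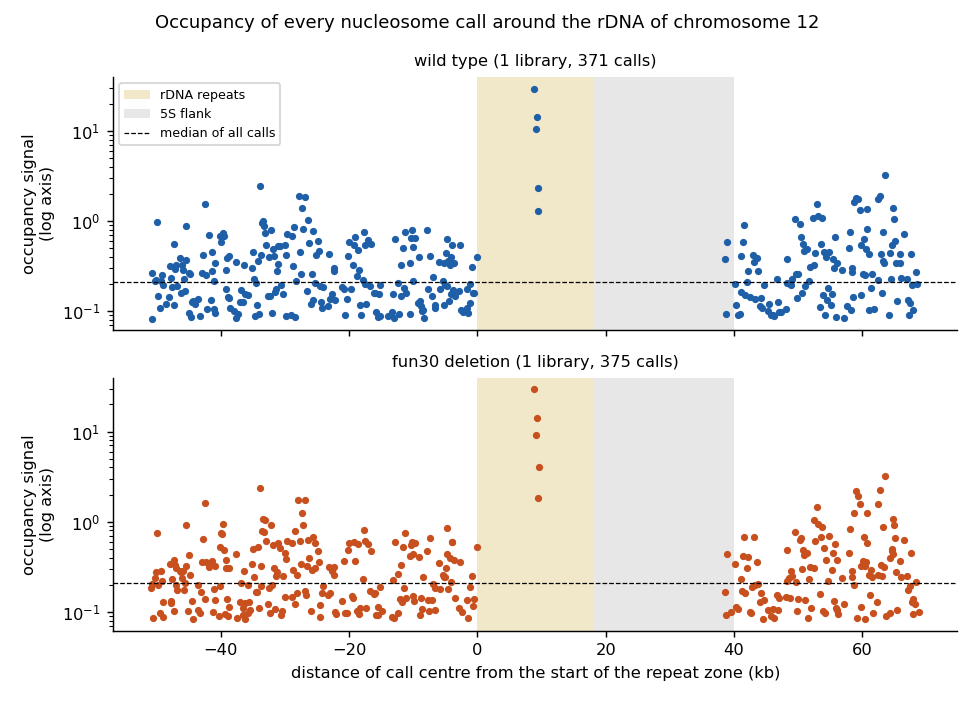
Occupancy signal of every call of the window (vertical axis, logarithmic) against the distance of its centre from the start of the repeat zone (horizontal axis, kb), with 1 panel per library and the median of all calls as a dashed line. The calls inside the repeats stand up to 140-fold above that median, and flank calls reach 3.22 at most.

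All of the 5 calls in the repeats had a partner in the other library. Pairs are mutual nearest calls of the libraries with centres no more than 73 bp apart, and displaced means by 20 bp or more. Of the 5 pairs 2 were displaced, both to higher coordinates (40%, exact 95% interval 5.27 to 85.3%), against 26.6% of all 40794 pairs of the genome. In the unique flanks 75 of 313 pairs were displaced (24.0%, 19.3 to 29.1%). The difference of 16.04 percentage points between repeats and flanks had an interval from -19.1 to 61.6, so it was not detectable with 5 pairs. The pairs of the repeats differed in occupancy by 2-fold or more in 1 case, the fifth call, against 2.59% of all pairs in that direction and 2.29% in the other.

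The calls of the 5S flank all lay at its right end, within 2 kb of the edge. The wild-type library had calls at 489571, 489674 and 489863 with occupancies of 0.374, 0.0939 and 0.578 and widths of 143, 86 and 86 bp. The fun30D library had calls at 489563, 489771, 489865 and 490481 with occupancies of 0.167, 0.0933, 0.440 and 0.101 and widths of 114, 96, 85 and 89 bp. All of these occupancies were within the range of the flank calls and below the lowest of the repeats. The outer wild-type calls had partners in fun30D, displaced by -8 and 2 bp. The log2 difference in occupancy was -1.17 at the left one and -0.39 at the right one. The call at 489674 in wild type and those at 489771 and 490481 in fun30D had no partner. They were weak, close to the lowest deposited value of 0.0824. Across the genome 15.0% of wild-type calls and 15.2% of fun30D calls had no partner. To the right followed a call at 491103 in wild type (occupancy 0.201) and at 491100 in fun30D (0.338). From the last call of the 5S flank it was 1240 bp away in wild type and only 619 bp in fun30D, where the weak call at 490481 lay between. Inside the 5S flank neighbouring calls were at most 189 bp apart in wild type and 616 bp in fun30D.

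Calls were also compared at the distances at which the genes repeat. At 9137 bp from the repeat calls, 1 of 5 had a call within 20 bp in each library. This was the second call of the group, and its counterpart was the last call before the repeats. In wild type the counterpart lay at 450936, 1 bp from the place given by the call at 460074, with an occupancy of 0.403 against 10.4. In fun30D it lay at 450920, 16 bp from the place given by the call at 460073, with an occupancy of 0.519 against 9.21. In the unique flanks the same distance led to a call from 26.4% of calls on the left and 21.1% on the right in wild type. In fun30D these shares were 23.8% and 21.4%. Most places at that distance from the repeat calls fell in the 2 empty stretches, so the 1 of 5 cannot be compared with these shares. At 3652 bp from the calls of the 5S flank, 2 of 3 wild-type and 2 of 4 fun30D calls had a call within 20 bp, each of them in the right unique flank. These calls lay at 493218 and 493526 in wild type, with counterparts in fun30D at 493219 and 493531. In the flanks 34.5% of calls on the left and 28.1% on the right met a call at that distance in wild type. In fun30D these shares were 31.9% and 30.5%. The exact intervals of the 5S flank, 9.43 to 99.2% in wild type and 6.76 to 93.2% in fun30D, included the shares of the flanks. To the left of the 5S flank calls that distance led into an empty stretch, so here too the shares cannot be compared. No call of the repeats had a counterpart inside the repeats at 9137 bp, an outcome largely fixed by position. To the right that distance led past the zone's edge, and to the left it led before the zone or into its empty left part.

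In the unique flanks the shares of unpaired and displaced calls were close to those of the genome, while call density was somewhat higher. In table order the genes next to RNH203 on the left are ACS2, an acetyl-coenzyme A synthetase, YLR152C, PCD1 and STM1, and those after MAS1 on the right are SHH4, PUS5, a pseudouridine synthase, SEC10, a subunit of the exocyst, and RPS31, which encodes a ribosomal protein fused to ubiquitin. The call density of the flanks was 1.13 times that of the genome in both libraries (1.01 to 1.25 in wild type and 1.02 to 1.25 in fun30D), with gaps such as the rDNA counted in the genome. The left and right flanks did not differ in density beyond counting error (ratio 1.04, 0.838 to 1.31 in wild type). The median occupancy was 0.217 on the left and 0.261 on the right in wild type, and 0.234 and 0.253 in fun30D. Over all calls of the genome it was 0.210 in both libraries. For the 2 flanks together it was 0.229 in wild type (0.201 to 0.266) and 0.243 in fun30D (0.2105 to 0.278). The wild-type interval included the genome's median, and the fun30D interval began almost at it. The share of calls without a partner was 13.8% in wild type (50 of 363, 10.4 to 17.8%) and 14.5% in fun30D (53 of 366, 11.0 to 18.5%).

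Occupancy varied along the flanks. Bins of 10 kb were counted outward from 451 kb on the left and from 491 kb on the right. Remainders at the ends of the window were left out. In the first 10 kb on the right the median was 0.164 in wild type and 0.165 in fun30D, and from 10 to 20 kb it was 0.341 and 0.320. On the left the first 10 kb had medians of 0.177 and 0.207, and the highest medians of the left flank were 0.287 in wild type, from 30 to 40 kb, and 0.306 in fun30D, from 20 to 30 kb. The strongest call of each flank, named after its values were seen, kept its centre. The one at 514585 in the right flank had the same centre in both libraries, with occupancies of 3.22 and 3.18. The one at 417027 in the left flank likewise had the same centre, with 2.47 and 2.37. The next strongest wild-type calls lay at 423096 on the left and 513686 on the right, with partners in fun30D at 423088 and 513687.

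Displacement was compared between the sides. On the left 54 of 202 pairs were displaced (26.7%, 20.8 to 33.4%), and on the right 21 of 111 (18.9%, 12.1 to 27.5%). The difference of 7.81 percentage points had an interval that included 0 (-2.60 to 17.3). The displaced share on the right differed from that of the rest of the genome by -7.70 points, with an interval that included 0 (-14.5 to 0.842). At a limit of 5 bp, added to the planned threshold of 20 bp, 51.4% of the right pairs had centres that close. In the rest of the genome 37.8% of the pairs did, a difference of 13.5 points (3.82 to 23.1). In the left flank this share was 34.7%. Displacement was less frequent among strong calls. Of 4 equal classes of occupancy, set over all pairs of the genome, the lowest held 77 flank pairs with 44.2% displaced (32.8 to 55.9%), and the highest held 104 with 4.81% displaced (1.58 to 10.9%). The genome gave 42.8% and 8.60% in these classes. The highest class held 42 of the 111 pairs of the right flank, and its part in the share within 5 bp was not tested. The directions were nearly even, with 36 pairs of the flanks displaced to higher and 39 to lower coordinates.

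**Figure D4:**
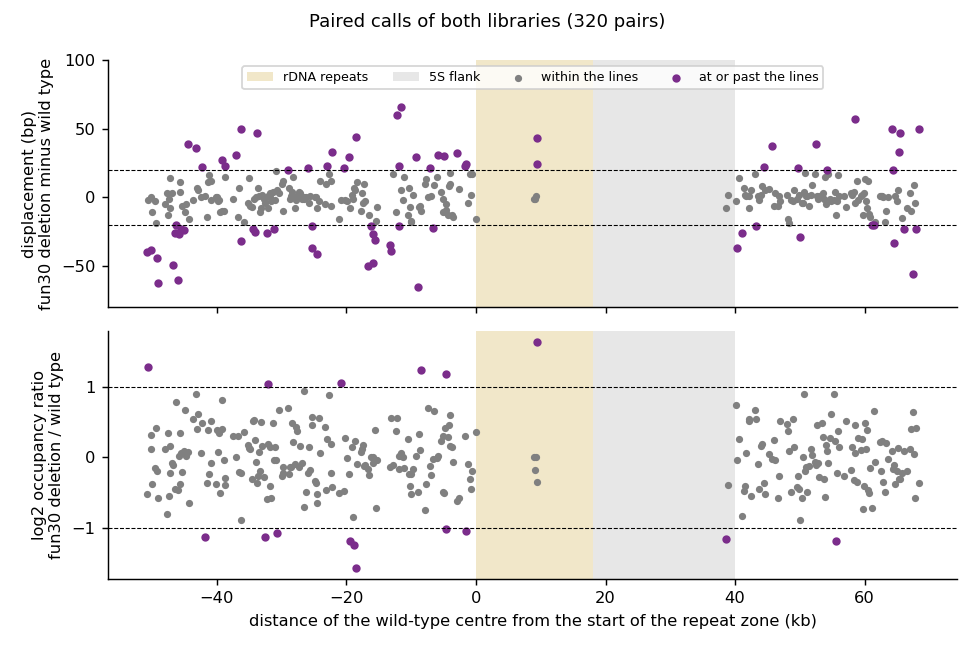
Displacement in bp (upper panel) and log2 occupancy ratio (lower panel) of the fun30D library against wild type for the 320 pairs of the window, by distance of the wild-type centre from the start of the repeat zone in kb. Dashed lines mark 20 bp and 2-fold, and the pair with the highest log2 ratio of the window, 1.64, is the fifth call of the repeats.

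Leaving out pairs in which a call fell into the lowest 25% of its library by occupancy, the largest displacements of the left flank were 66 bp to the right, from 439477 to 439543, and 60 bp to the left, from 404965 to 404905 (a signed displacement of -60 bp). The wild-type calls of these pairs were wide, at 176 and 158 bp, and the fun30D calls measured 116 and 92 bp. In the right flank the largest were 57 bp, from 509580 to 509637, and 50 bp, from 519381 to 519431. Occupancy differed most in the left flank at 431621, with 0.329 in wild type and 0.144 in fun30D (log2 difference -1.19), and at 446321, with 0.191 and 0.436 (1.19). In the right flank it did so at 506301, with 0.154 and 0.290 (0.91), and at 501650, with 0.159 and 0.297 (0.90). These are extremes of 151 and 86 pairs, and they have no replicate check. By 2-fold or more 5 of 313 flank pairs (1.60%) were higher in fun30D and 9 (2.88%) were lower, near the 2.59% and 2.29% of all pairs.

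Spacing in the flanks was regular, from 140 to below 190 bp, in 100 of 361 distances in wild type (27.7%, 23.1 to 32.6%) and in 118 of 364 in fun30D (32.4%, 27.6 to 37.5%). All distances of the genome gave 29.3% in wild type and 31.5% in fun30D. By side the share was 26.1% on the left and 30.7% on the right in wild type, and 30.3% and 36.2% in fun30D. In the left flank the longest unbroken series of regular distances held 6 calls in wild type, from 418316 to 419136, and 4 in fun30D. In the right flank it held 5 calls in wild type and 9 in fun30D, from 504390 to 505745, at distances of 149 to 188 bp. The longest distance between calls inside the left flank lay at overlapping places, from 435875 to 437038 in wild type (1163 bp) and from 436073 to 437673 in fun30D (1600 bp). In the right flank it ran from 498248 to 499059 in wild type (811 bp) and from 498005 to 499061 in fun30D (1056 bp).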

How the data were processed

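Per the file headers, the deposited tables give chromosome, centre, width and an occupancy signal for the calls, with 1 table per library. The scaling of this signal by the authors, the nucleosome caller, the filters, the read depth and the genome build are unknown (not given in the sources used here); Bowtie 0.12.7 is named in the submitters' processing notes. Calls on chromosomes 1 to 16 were used, as deposited. The window, zones and measures were chosen with earlier results of these data known.

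Calls of the libraries were paired as mutual nearest neighbours at most 73 bp apart. This step was tried on simulated calls spaced too widely to have more than 1 candidate partner, so pairing among close calls was not tested. Shares carry exact (Clopper-Pearson) 95% intervals, ratios of density an exact binomial interval, and differences of shares an interval combined from both exact ones. Where a median carries an interval it is an order-statistic one. For call widths in the repeats only the range is given. Distances belong to a zone when both calls lie in it, and pairs by their wild-type centre. All calls of the repeats and the 5S flank are named. In the flanks the 2 pairs with the largest displacement and the 2 with the largest occupancy ratio per side are named, leaving out pairs with a call in the lowest 25% of its library by occupancy. Table R64 served for gene names, order, lengths and repeat distances only. Python 3.11.15, pandas 2.3.3 and scipy 1.17.1 were used.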

Additional observations from a re-analysis of the deposited data

How the results depend on the processing

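Zone edges, call filters, pairing distance, displacement threshold, spacing range and the extent of the flank were varied in 84 recomputed values, and 81 stayed within the interval of the reported value. The difference in unpaired share between repeats and flanks, -13.8 points in wild type and -14.5 in fun30D, became -29.1 and -32.7 points with calls 100 bp or wider, where more flank calls lose their partner. The match at 9137 bp in fun30D, 20% of the repeat calls, became 0% with a tolerance of 10 bp, since the counterpart lay 16 bp away. With 5 calls in the repeats these intervals are wide, and values that changed sign could stay within them. Narrowing the repeat zone by 1 kb at each edge removed no call, so only the densities could move there. The count of values that stayed therefore says little about robustness. The excess of the median occupancy over the flanks, 10.2 in wild type and 8.97 in fun30D, was 1.08 and 1.57 when the zone was widened by 1 kb at each edge, which adds 4 flank calls. The call density relative to the flanks, 0.0612 in wild type and 0.0607 in fun30D, was 0.0990 and 0.0982 with that zone. The difference in displaced share, 16.04 points, was -2.05 points with that zone and -7.92 for displacements of 10 bp or more. The excess in regular spacing in fun30D, 17.6 points, was -7.78 points with the wider zone and -20.9 for distances from 150 to below 180 bp. No paired analysis was possible because there is 1 library per genotype.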

Other observations

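The right side of the group of calls in the repeats was set beside strong nucleosomes elsewhere, a comparison chosen after its values were seen. Among 1613 pairs outside the repeats with an occupancy above 1 in both libraries, 30 were displaced by 20 bp or more (1.86%, 1.26 to 2.64%) and 6 by 40 bp or more (0.372%, 0.137 to 0.808%). Their typical displacement was small, with a median of 1 bp. The repeats had 2 of 5 such pairs displaced, by 24 and 43 bp. An occupancy above 1 need not mean the same in the repeats, where occupancy per copy and copy number cannot be told apart. Width and distance to neighbours were not matched. The comparison pairs had median widths of 117 bp in wild type and 116 bp in fun30D. The 2 displaced repeat calls measured 100 and 88 bp in wild type and 111 and 95 bp in fun30D. The displacements are values of 1 library per genotype, and their cause was not tested.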
